A study of Homo sapiens with 6 samples.

Results

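Potassium channel genes were taken as all genes whose symbol begins with KCN, which gave 96 of the 19386 genes listed. Their messenger RNA was measured by sequencing in AC16 cells, a wild-type human cell line described as cardiomyocytes. It is a hybrid line, derived from adult ventricular cells joined to virus-transformed fibroblasts, so it stands for 1 line and not for heart tissue. There were 3 libraries of cells given 26 mM potassium chloride (KCl) and 3 libraries of untreated control cells, all collected at 16 h. Neither group carried any other agent or allele per the labels. Libraries held 18886525 to 19159312 estimated reads in KCl and 18601977 to 19286588 in control, and nothing in the labels says that the 3 in a group were separate cultures. The p-values given therefore reflect how much these 6 libraries vary, and that variation may be only technical.

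Potassium channels let potassium leave or enter the cell and set its resting potential and the end of each action potential. A pore is built from alpha subunits, which are grouped here by gene family. The voltage-gated ones are KCNA to KCND, KCNF to KCNH, KCNQ, KCNS and KCNV. The group called calcium- or sodium-activated holds KCNMA, KCNN, KCNT and KCNU, and its name does not give the trigger of each member. Others are inwardly rectifying (KCNJ) or have 2 pore domains (KCNK). Auxiliary subunits (KCNAB, KCNE, KCNIP and KCNMB) change how a pore gates or reaches the membrane. In the ventricle, KCNJ2 and its relatives hold the resting potential, and KCNH2, KCNQ1 and the KCND channels repolarize the cell. Raising potassium outside the cell moves the potassium equilibrium potential and depolarizes the membrane, which is how potassium cardioplegia arrests the heart. Here KCl and control cells are compared for the RNA of each of these genes. The labels list no group given another salt or solute, so effects of potassium, chloride and added solute cannot be told apart.

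The cells did not carry the full marker set of the labelled cell type. Only 1 of 15 cardiomyocyte markers analysed, the transcription factor gene GATA4, reached 1 TPM (a level scaled for gene length and library size). Its reads, scaled to a normalized library size (TMM) and not to gene length (CPM), averaged 43.3 ± 5.18 CPM in KCl and 43.9 ± 1.6 CPM in control (SD, n = 3 each). TNNT2, NKX2-5, NPPA and MYL7 were listed at 0 reads in every library. All 10 fibroblast markers reached 1 TPM. Their summed level was 3062.6 to 3265.6 TPM in KCl and 2907.1 to 3134.6 TPM in control, and these ranges overlap. In the test described below, 9 of the 10 were called higher and none lower. Over all tested genes, 20.1% were called higher and 18% lower, and these shares were not compared by a test. COL1A1, the marker with the highest level, did not pass (1527.2 TPM in KCl and 1658.9 TPM in control). Smooth muscle markers summed to 180.8 to 192.5 TPM in KCl and 176.7 to 200.1 TPM in control, with 1 of the 5 tested higher. Endothelial markers summed to 5.43 to 5.88 TPM in KCl and 4.45 to 5.02 TPM in control. TEK made up most of that sum, at 4.59 TPM in KCl and 4.13 TPM in control, and did not pass. PECAM1, the other of the 2 tested, was higher but below 1 TPM (0.773 TPM in KCl and 0.31 TPM in control). CDH5, VWF, KDR and ERG were not tested. Neuronal markers summed to 22.5 to 23.3 TPM in KCl and 17.8 to 20.6 TPM in control, with 1 of the 3 tested higher. Leukocyte markers summed to 121.5 to 130.7 TPM in KCl and 169.7 to 183.8 TPM in control, with CD68 lower among the 4 analysed. CD68 made up nearly all of that sum, at 124.3 TPM in KCl and 176.6 TPM in control. The other 3 had group means of 0.367 to 1.1 TPM in KCl and 0.343 to 1.01 TPM in control, where PTPRC and LYZ did not pass and CD79A was not tested. What part these marker levels have in the results below was not tested. In RNA from whole cultures, fewer cells of a type and less RNA per cell cannot be told apart.

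Of the 96 genes, 19 were expressed by the rule used here, an authors' mean of at least 1 TPM in either group. A further 74 had reads but stayed below 1 TPM in both groups, and 3 (KCNV2, KCNK17 and KCNMB1) had no read in any library. The 19 expressed genes fell into 8 voltage-gated alpha subunits of 40 listed, 4 of 13 voltage-gated auxiliary subunits, 3 of 8 calcium- or sodium-activated alpha subunits, 2 of 4 auxiliary subunits of the large-conductance calcium-activated (BK) channel, 2 of 14 2-pore-domain subunits and none of 16 inward rectifiers. KCNMB3, at 1.38 TPM in KCl and 0.997 TPM in control, was the expressed gene nearest to the threshold. KCNE5, at 0.84 TPM in KCl and 0.82 TPM in control, was the nearest below it.

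The levels were dominated by 2 genes. KCNG1, which codes for an electrically silent alpha subunit that works only in channels with KCNB subunits, averaged 83.6 ± 4.21 TPM in KCl and 86.0 ± 1.01 TPM in control (SD, n = 3 each). KCNMA1, the pore of the BK channel, which opens on calcium and depolarization, averaged 40.0 ± 2.14 TPM in KCl and 36.3 ± 1.64 TPM in control. Together they held 50.7% to 52.5% of the TPM of all KCN genes in KCl libraries and 54.5% to 55.3% in control libraries. KCNK2 followed with 22.0 TPM in KCl and 11.6 TPM in control, and KCNAB3 and KCNIP3 came next, with group means of 9.98 to 12.2 TPM. The summed level of all KCN genes was 238.4 ± 11.6 TPM in KCl and 222.5 ± 5.16 TPM in control. KCN genes took 0.0333% to 0.0365% of the reads in KCl and 0.032% to 0.0332% in control.

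**Figure D1:**
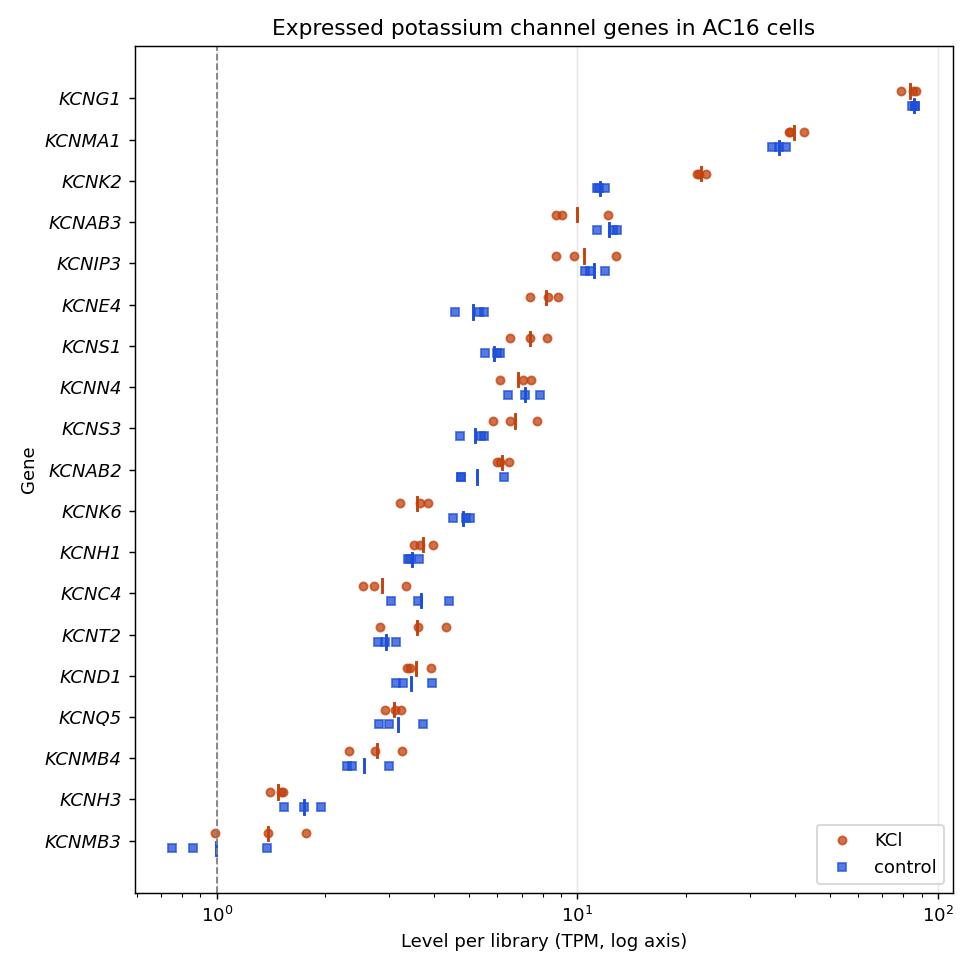
Level of each of the 19 expressed potassium channel genes in TPM on a log axis, 1 point per library (KCl circles, control squares), with a short line at each group mean and a dashed line at 1 TPM. KCNG1 lies highest, followed by KCNMA1 and then KCNK2. KCNK2 shows the widest gap between groups, at 22.0 TPM in KCl and 11.6 TPM in control. At KCNMB3 both groups straddle or touch the dashed line.

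For the comparison of the groups, estimated reads were tested with edgeR's quasi-likelihood F test (two-sided) across 13044 genes, with Benjamini-Hochberg adjustment over all of them and a threshold of 0.05. The filter on low counts let through 26 of the 96 KCN genes, the 19 expressed ones and KCNE5, KCNJ14, KCNJ2, KCNK15, KCNS2, KCNAB1 and KCND3. The other 70 had at most 54 reads over the 6 libraries. Of the 26 tested, KCNK2, KCNE4, KCNS1, KCNJ2, KCNMA1 and KCNS3 were higher in KCl, KCNK6 was lower, and 19 did not pass. That is 26.9% of the tested KCN genes called, where 38% of all tested genes were called, 20.1% as higher and 18% as lower. The 2 shares were not tested against each other, and nothing is read from their difference. The median log2 fold change was 0.16 for the 26 genes and -0.005 for all genes tested. In 3 of the 26, KCNJ2, KCNK2 and KCNE4, the change was at least 1.5-fold.

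**Figure D2:**
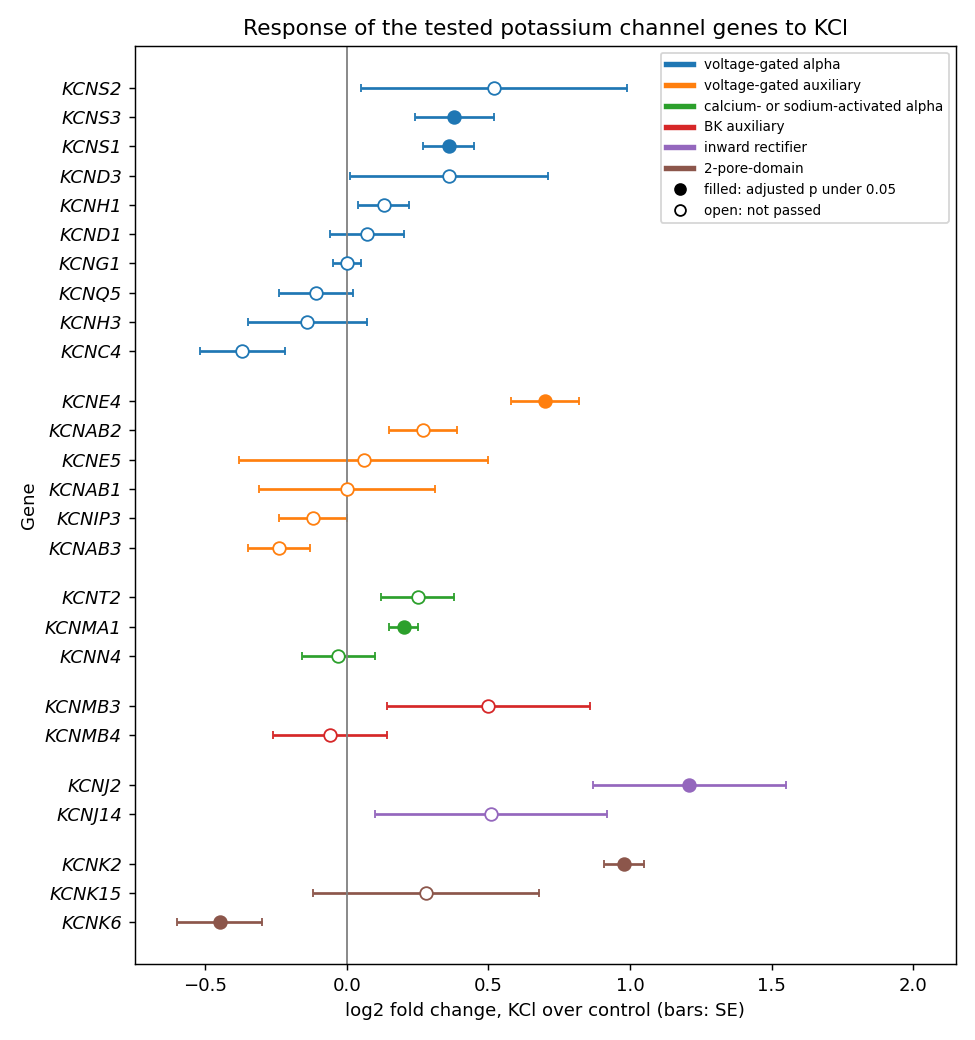
log2 fold change of KCl over control for the 26 tested potassium channel genes, with the standard error as a bar, grouped by kind of subunit, with filled points for an adjusted p under 0.05 and open points for the rest. KCNJ2 (1.21) and KCNK2 (0.98) lie farthest to the right, KCNK6 (-0.45) is the filled point on the left, and KCNG1 sits at 0 with a narrow bar.

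The 2-pore-domain subunits make background channels that stay open at rest, and they held both the clearest rise and the only fall. KCNK2 (gene ID 3776, GRCh38 chromosome 1, 215005775 to 215237093, plus strand) codes for a background channel opened by membrane stretch and fatty acids. It had 657, 628 and 685 reads in the KCl libraries, against 349, 341 and 350 in the control libraries. Every KCl library lay far above every control library, and the spread within each group was small beside the gap. On the normalised scale, KCNK2 averaged 35.3 ± 1.51 CPM in KCl and 17.8 ± 0.568 CPM in control (SD, n = 3 each). The log2 fold change was 0.98 ± 0.07 (SE), or 1.98-fold, with an adjusted p of 1.15e-10 by edgeR's quasi-likelihood test. The call held under each of the 17 other settings tried, with log2 fold changes of 0.79 to 1.01.

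KCNK6 (gene ID 9424, chromosome 19, 38319844 to 38332076, plus strand), a 2-pore-domain subunit found largely in organelle membranes, was lower. It had 86, 82 and 76 reads in KCl libraries, against 120, 111 and 116.01 reads in control libraries. The groups did not overlap, and the highest KCl library stayed well under the lowest control library. KCNK6 averaged 4.37 ± 0.262 CPM in KCl and 5.95 ± 0.273 CPM in control, a log2 fold change of -0.45 ± 0.15 with an adjusted p of 0.0212 in edgeR's quasi-likelihood test. The call was lost with DESeq2 (adjusted p = 0.0553) and without KCl replicate 3 (edgeR adjusted p = 0.0722), control replicate 1 (0.0597) or control replicate 3 (0.0504), while the log2 fold change stayed between -0.49 and -0.30.

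KCNK15, a 2-pore-domain subunit with 0.653 TPM in KCl and 0.553 TPM in control, did not pass (adjusted p = 0.613 in edgeR). The summed level of the 14 KCNK genes was 26.6, 27.7 and 27.2 TPM in KCl libraries, against 17.4, 17.3 and 18.3 TPM in control libraries. KCNK2 made up most of that sum in both groups. The other 11 KCNK genes, KCNK17 among them, stayed below the filter, and the stretch-activated relatives KCNK4 and KCNK10 had 24 and 4 reads over all 6 libraries.

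KCNJ2 (gene ID 3759, chromosome 17, 70168673 to 70180048, plus strand) codes for the main inward rectifier of the ventricle, which holds the resting potential near the potassium equilibrium potential. It had 40, 23 and 42 reads in KCl libraries, against 12, 13 and 22 reads in control libraries. The groups did not overlap, but KCl replicate 2 was only 1 read above the highest control library. The level was low in both groups, at 0.74 TPM in KCl and 0.33 TPM in control, so KCNJ2 was not expressed by the 1 TPM rule. Its log2 fold change was 1.21 ± 0.34, or 2.32-fold, the largest among the tested KCN genes and also the one of the calls with the largest standard error (adjusted p = 0.00579, edgeR). By limma on log2(FPKM + 1), where a low gene's change is understated, it was 0.21 with an adjusted p of 0.0549.

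The other inward rectifiers also stayed below 1 TPM in both group means. KCNJ14, which codes for a relative of KCNJ2, had 0.767 TPM in KCl and 0.547 TPM in control, on 8 to 25 reads in KCl libraries and 11 to 17 reads in control libraries, and its log2 fold change of 0.51 ± 0.41 did not pass (adjusted p = 0.344, edgeR). The remaining 14 KCNJ genes were not tested. KCNJ8, a pore subunit of ATP-sensitive channels, had 4, 16 and 13 reads in KCl libraries, against 5, 7 and 6 reads in control libraries, and these groups overlap. KCNJ11, the other pore subunit of those channels, had 4.44 to 6.67 reads in KCl and 0 to 6.39 reads in control. ABCC9, the regulatory partner of these pores, was far better covered at 10.7 TPM in KCl and 11.2 TPM in control, and did not pass (log2 fold change -0.02 ± 0.07, adjusted p = 0.818, edgeR).

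Bases upstream of a gene's start were read from RefSeq (GRCh38.p14) for the 3 called genes that are shown here, KCNK2 and KCNJ2 for the largest rises and KCNK6 for the fall. Of the 7 called genes, 5 had an entry, with 8 promoters in all, and KCNE4 and KCNS1 had none. Each window holds the 250 bases before the start, 5′ to 3′ on the gene's strand, in lower case with motif matches in capitals. The motifs searched on both strands were TGACNNNGC (core of the antioxidant response element bound by NRF2), TGACGTCA (cyclic AMP response element), TGGAAA (core of the element bound by NFAT5), TCACNCCAC (sterol response element) and ACGTG (hypoxia response element core). The 2 KCNK2 windows are chr1:215005292-215005541 and chr1:215082487-215082736, that of KCNJ2 is chr17:70169282-70169531 and that of KCNK6 is chr19:38319595-38319844, all on the plus strand.
KCNK2 first start: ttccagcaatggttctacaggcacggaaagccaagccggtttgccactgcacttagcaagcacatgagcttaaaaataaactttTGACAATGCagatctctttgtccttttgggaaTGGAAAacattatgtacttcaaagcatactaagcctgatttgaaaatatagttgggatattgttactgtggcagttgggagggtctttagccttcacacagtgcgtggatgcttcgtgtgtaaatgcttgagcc
KCNK2 second start: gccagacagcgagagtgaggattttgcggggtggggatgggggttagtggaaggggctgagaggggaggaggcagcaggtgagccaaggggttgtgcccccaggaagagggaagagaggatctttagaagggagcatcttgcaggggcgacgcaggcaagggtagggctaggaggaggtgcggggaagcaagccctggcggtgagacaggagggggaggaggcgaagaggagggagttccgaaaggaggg
KCNJ2: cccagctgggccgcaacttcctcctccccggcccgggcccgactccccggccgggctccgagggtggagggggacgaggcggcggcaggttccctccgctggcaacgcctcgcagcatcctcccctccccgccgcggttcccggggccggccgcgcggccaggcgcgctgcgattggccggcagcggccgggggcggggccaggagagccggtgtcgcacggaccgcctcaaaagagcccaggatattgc
KCNK6: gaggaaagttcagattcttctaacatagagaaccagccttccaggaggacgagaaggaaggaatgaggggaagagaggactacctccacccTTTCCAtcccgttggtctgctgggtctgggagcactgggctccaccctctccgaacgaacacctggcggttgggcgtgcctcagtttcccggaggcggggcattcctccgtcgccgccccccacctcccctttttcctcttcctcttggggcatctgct
The first KCNK2 window held a TGACNNNGC match beginning 166 bases and a TGGAAA match beginning 134 bases before the start, which do not overlap. In the KCNK6 window a TGGAAA match on the reverse strand lay 159 bases before the start. The second KCNK2 window and the KCNJ2 window held none of the 5 motifs. Such matches are common, since 3830 of all 35114 RefSeq promoters (10.9%) held TGACNNNGC and 6325 of them held TGGAAA. Shares were 1.65% for TGACGTCA, 0.883% for TCACNCCAC and 18.5% for ACGTG, which in the called genes was matched once, in a KCNS3 window 111 bases before the start. A match in these letters is a description and no evidence of binding.

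Among the channels opened by calcium or sodium, KCNMA1 (gene ID 3778, chromosome 10, 76869601 to 77638369, minus strand) was higher by a small amount. It had 1397, 1565 and 1454 reads in KCl libraries, against 1381, 1314 and 1329 reads in control libraries. The groups did not overlap, though KCl replicate 1 lay only slightly above control replicate 1. KCNMA1 averaged 79.1 ± 4.8 CPM in KCl and 69.0 ± 1.99 CPM in control, a log2 fold change of 0.20 ± 0.05 (adjusted p = 0.00589, edgeR). On TPM or FPKM values in limma it was 0.11 to 0.14 and did not pass (adjusted p = 0.1 to 0.181).

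KCNN4, the intermediate-conductance channel that opens through bound calmodulin, had 6.86 TPM in KCl and 7.15 TPM in control and did not pass (log2 fold change -0.03 ± 0.13, adjusted p = 0.889, edgeR). KCNT2, a sodium-activated channel, had 3.59 TPM in KCl and 2.95 TPM in control and did not pass either (0.25 ± 0.13, adjusted p = 0.122, edgeR). The BK auxiliary subunits KCNMB4 and KCNMB3 alter the calcium sensitivity and gating of the KCNMA1 pore. KCNMB4 had 2.78 TPM in KCl and 2.56 TPM in control, and its log2 fold change from the reads was -0.06 ± 0.20 (adjusted p = 0.828, edgeR), so the TPM and read scales differ in sign within the error. KCNMB3 had a log2 fold change of 0.50 ± 0.36 (adjusted p = 0.286, edgeR) on 15.02 to 27.41 reads in KCl and 12.08 to 21.07 in control. Its reads are uncertain, since 37.9% of its exon bases lie opposite exons of PIK3CA in GENCODE 29 and whether counting used the strand is not given in the sources used here. KCNMB1, the auxiliary subunit of smooth muscle BK channels, had no read.

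KCNG1 (gene ID 3755, chromosome 20, 51003656 to 51023129, minus strand) leads the voltage-gated alpha subunits and is the most abundant KCN gene. It had 1609, 1720 and 1710 reads in KCl libraries, against 1788, 1763 and 1718 reads in control libraries, before scaling for the library. After scaling, the groups overlap, at 90.2 ± 3.57 CPM in KCl and 90.3 ± 0.751 CPM in control. The log2 fold change was 0.00 ± 0.05 (adjusted p = 0.983, edgeR), and it ran from -0.07 to 0.03 over the other settings.

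KCNS1 and KCNS3 are also electrically silent partners of KCNB subunits, and both were higher. KCNS1 (gene ID 3787, chromosome 20, 45092310 to 45101112, minus strand) had 314, 382 and 352 reads in KCl libraries, against 298, 273 and 280 reads in control libraries. The lowest KCl library was just above the highest control library. It averaged 18.8 ± 1.88 CPM in KCl and 14.6 ± 0.666 CPM in control, a log2 fold change of 0.36 ± 0.09 (adjusted p = 0.00311, edgeR). By limma on TPM or FPKM it was 0.22 to 0.32, with adjusted p of 0.0557 to 0.0577.

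KCNS3 (gene ID 3790, chromosome 2, 17877847 to 18361616, plus strand) had 120, 153 and 132 reads in KCl libraries, against 99, 117 and 108 reads in control libraries. Here the gap between the groups was 3 reads, and KCl replicate 2 stood highest. KCNS3 averaged 7.25 ± 0.917 CPM in KCl and 5.55 ± 0.466 CPM in control, a log2 fold change of 0.38 ± 0.14 (adjusted p = 0.0334, edgeR). It is the least stable of the 7 calls and was lost under 9 of 17 other settings, among them edgeR without KCl replicate 2 (0.28, adjusted p = 0.171), KCl replicate 3 (0.0621), control replicate 1 (0.131) or control replicate 3 (0.0531), and DESeq2 (0.0826). KCNB2, which forms pores that these silent subunits can join, was nearly unread, with 0.06 TPM in KCl and 0.0433 TPM in control. The other silent subunits were low as well, with KCNS2 at 0.437 TPM in KCl and 0.313 TPM in control, KCNF1 at 0.307 TPM in KCl and 0.187 TPM in control, and KCNV1 at 0.0367 TPM in KCl and 0.02 TPM in control.

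The remaining 5 expressed voltage-gated alpha subunits did not pass. KCNC4, a rapidly inactivating voltage-gated channel, had 2.87 ± 0.421 TPM in KCl and 3.68 ± 0.673 TPM in control, and its log2 fold change of -0.37 ± 0.15 had an adjusted p of 0.0583 (edgeR). It passed as lower with upper-quartile scaling (-0.41, adjusted p = 0.0341) and without KCl replicate 2 (-0.49, 0.0263) or control replicate 2 (-0.46, 0.0347). KCNH1, an ether-à-go-go channel, had 3.72 TPM in KCl and 3.49 TPM in control (0.13 ± 0.09, adjusted p = 0.312, edgeR). KCND1, a transient outward channel, had 3.57 TPM in KCl and 3.45 TPM in control (0.07 ± 0.13, adjusted p = 0.693, edgeR). KCNQ5, a channel of the M-current kind, had 3.09 TPM in KCl and 3.18 TPM in control (-0.11 ± 0.13, adjusted p = 0.514, edgeR). KCNH3, an ether-à-go-go-like channel, had 1.48 TPM in KCl and 1.74 TPM in control (-0.14 ± 0.21, adjusted p = 0.639, edgeR).

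**Figure D3:**
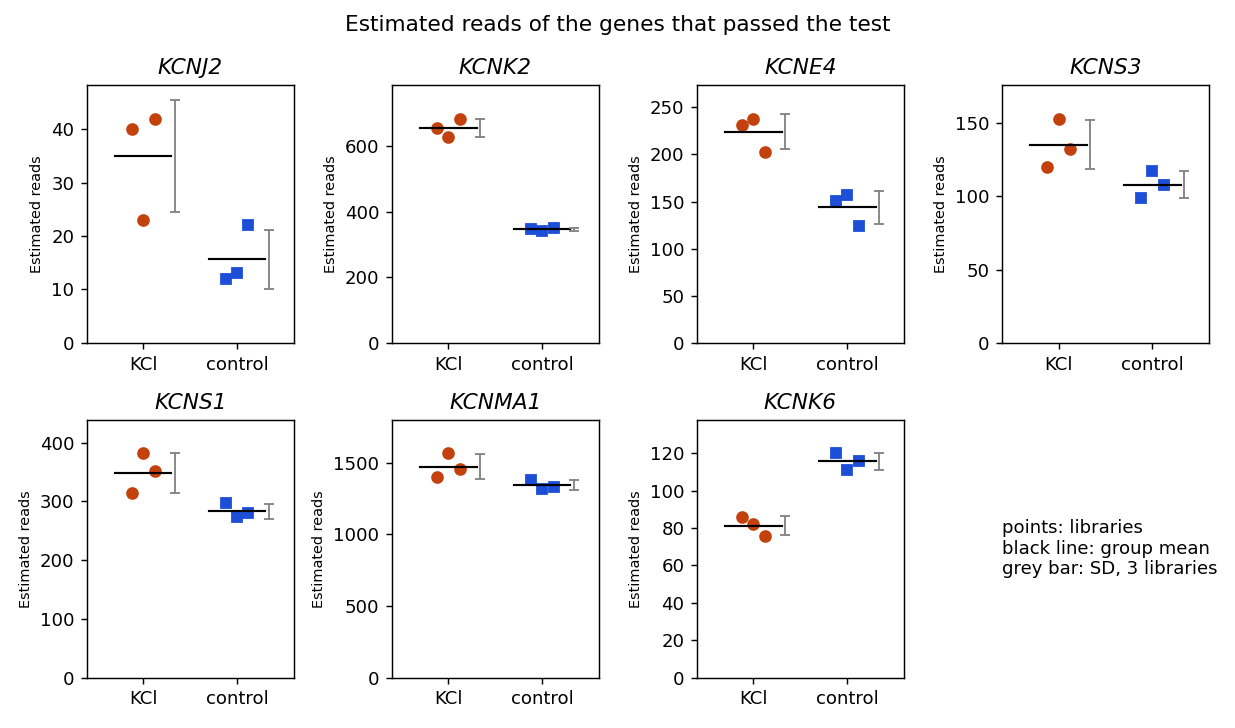
Estimated reads per library of the 7 potassium channel genes that passed the test, with KCl left of control in each panel, a point per library, a black line at the group mean and a grey bar for the SD over 3 libraries; each axis starts at 0. KCNK2 shows the widest separation, KCNJ2 rests on 12 to 42 reads per library, and KCNK6 alone has its KCl libraries below the control ones.

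Auxiliary subunits of the voltage-gated channels had 1 call among 6 tested. KCNE4 (gene ID 23704, chromosome 2, 223051814 to 223198399, plus strand) codes for a single-span protein that inhibits KCNQ1 and some KCNA channels. It had 231.01, 238 and 203 reads in KCl libraries, against 151, 157 and 124 reads in control libraries. Each KCl library was well above each control library. KCNE4 averaged 8.17 ± 0.744 TPM in KCl and 5.14 ± 0.49 TPM in control, a log2 fold change of 0.70 ± 0.12, or 1.63-fold (adjusted p = 3.77e-05, edgeR), and the call held under all 17 other settings. Of the pores just named, KCNQ1 had 1 read in all 6 libraries together, and KCNA3, from the KCNA group, also had 1. Whether KCNE4 acts on other KCN pores in these cells was not tested.

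KCNAB3 and KCNAB2 code for cytoplasmic beta subunits of KCNA channels, which have an aldo-keto reductase fold. KCNAB3 had 9.98 ± 1.88 TPM in KCl and 12.2 ± 0.819 TPM in control, and did not pass (log2 fold change -0.24 ± 0.11, adjusted p = 0.101, edgeR). It was called lower only without KCl replicate 2, the KCl library in which it was highest (-0.40, adjusted p = 0.0067). KCNAB2 had 6.18 ± 0.244 TPM in KCl and 5.26 ± 0.878 TPM in control and did not pass (0.27 ± 0.12, adjusted p = 0.0742, edgeR), though it did without control replicate 2 (0.39, adjusted p = 0.0189). KCNAB1 had 18.01 to 24.09 reads in KCl and 18.69 to 24.74 reads in control and overlapped fully. Of the pores these subunits serve, none of the 8 KCNA genes had a group mean of 0.2 TPM, and KCNA7 had the highest group mean, 0.137 TPM in KCl and 0.177 TPM in control.

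KCNIP3 codes for a calcium-binding protein that assembles with KCND channels and that also binds DNA as a repressor. It had 10.4 ± 2.1 TPM in KCl and 11.1 ± 0.731 TPM in control and did not pass (log2 fold change -0.12 ± 0.12, adjusted p = 0.43, edgeR). Its 3 relatives were not tested, and KCNIP2, the partner of KCND channels in the heart, had 6, 6 and 2 reads in KCl libraries, against 15, 6 and 11 reads in control libraries. KCNE5, a relative of KCNE4, had 9 to 11 reads in KCl and 7 to 12 reads in control (0.06 ± 0.44, adjusted p = 0.925, edgeR). KCNE3 had 0.393 TPM in KCl and 0.327 TPM in control.

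The subunits that carry the named repolarizing currents of the heart were looked at as a set of 15 genes, chosen after their values were seen and described without a test. None of the 15 reached 1 TPM in either group. Their summed level was 2.19 to 2.44 TPM in KCl and 1.73 to 3.62 TPM in control. KCNJ2 and KCND3 were the only members with enough reads to be tested. KCND3, which codes for a transient outward channel, had 19.43, 14.01 and 26.47 reads in KCl libraries, against 16.87, 17.2 and 14.19 reads in control libraries, and did not pass (log2 fold change 0.36 ± 0.35, adjusted p = 0.45, edgeR). KCNH2, the pore of the rapid delayed rectifier, had 1 read in all, in a control library. Where a library lists 0 reads, up to 3 reads remain possible, or 0.156 to 0.161 CPM (95% limit, counting error only).

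**Figure D4:**
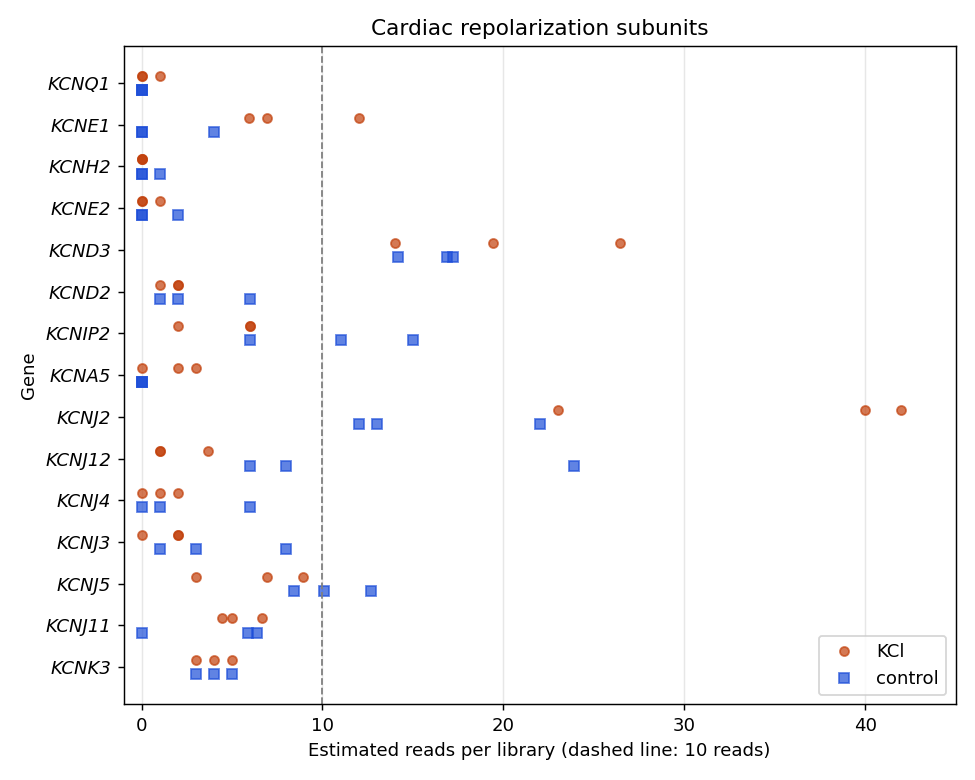
Estimated reads per library of 15 subunits of cardiac repolarizing currents, with KCl circles above control squares for each gene and a dashed line at 10 reads. Only KCNJ2 and KCND3 lie right of the line in all libraries, and most of the others have fewer than 10 reads in every library.

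Some of these low genes have near-identical copies elsewhere in the genome, and their reads were not whole numbers, so their own shares are uncertain. KCNE1, the partner of KCNQ1 in the slow delayed rectifier, had 6.95, 5.91 and 12.02 reads in KCl libraries, against 4, 0 and 0 reads in control libraries. Its copy KCNE1B had 6.05, 6.09 and 5.98 reads in KCl libraries, against 0, 1 and 7 reads in control libraries. KCNJ12, a cardiac inward rectifier, had 3.67, 1 and 1 reads in KCl libraries, against 8, 6 and 23.93 reads in control libraries, and its copy KCNJ18 had 1.33, 1 and 5 reads in KCl, against 0, 0 and 3.07 reads in control. KCNE1 was called higher and KCNJ12 lower only when the filter on low counts was dropped. So were KCNH7, higher on 5, 14 and 5 reads in KCl against 0, 4 and 0 in control, and KCNJ6, lower on 0, 0 and 0 reads in KCl against 2, 0 and 7 in control. These 4 differences rest on a handful of reads.

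The 77 genes that were not expressed included 74 with reads. Over all 6 libraries they ran from 0 to 78 reads among 12 KCNK genes, from 0 to 108.2 among 32 voltage-gated alpha genes, from 3 to 130.8 among 9 auxiliary genes of voltage-gated channels, from 0 to 4 among 2 KCNMB genes, from 2 to 36.1 among 5 calcium- or sodium-activated genes and from 2 to 152 among 16 KCNJ genes. Those below 1 TPM together had 291.6 to 343.9 reads per KCl library and 244.0 to 340.6 reads per control library, and these ranges overlap. Of the 74, 49 to 53 had a read in a KCl library and 44 to 52 in a control library. KCNRG, a regulator of channel assembly that is no channel itself, had 0.553 TPM in KCl and 0.71 TPM in control, but 66.8% of its exon bases are shared with TRIM13 on the same strand.

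Genes outside the family whose products bind, regulate or resemble potassium channels, or carry potassium in organelles, were taken as a list of 40. Of these, 39 were analysed and 29 tested, with 11 higher, 4 lower and 14 not passed, against 20.1% higher and 18% lower in the background. The median log2 fold change of the list was 0.04. Among 16 tested subunits and partners 6 were higher and 2 lower, among 6 genes of turnover and control 3 were higher and 1 lower, among 5 organelle genes 1 was higher and 1 lower, and of 2 pacemaker cation channels 1 was higher. These shares were not tested against the background, and nothing is read from their difference. The genes called higher numbered 8 without KCl replicate 3 and 12 without control replicate 2. Without KCl replicate 1, the genes called lower numbered 2.

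S100A10, which binds the acid-sensitive channel KCNK3 and helps bring it to the membrane, averaged 352.1 ± 9.5 CPM in KCl and 227.6 ± 5.26 CPM in control (log2 fold change 0.63 ± 0.04, adjusted p = 4.75e-12, edgeR). KCNK3 itself was nearly unread, with 0.107 TPM in KCl and 0.09 TPM in control. AMIGO2, a cell adhesion protein whose relative AMIGO1 is a subunit of KCNB channels, averaged 122.8 ± 5.05 CPM in KCl and 71.8 ± 2.19 CPM in control (0.78 ± 0.05). AMIGO1 itself was lower, at 2.78 ± 0.357 CPM in KCl and 4.18 ± 0.385 CPM in control (-0.59 ± 0.19, adjusted p = 0.0157, edgeR). CAV1, the caveolar scaffold that holds several channels, averaged 916.7 ± 25.4 CPM in KCl and 615.9 ± 17.7 CPM in control (0.57 ± 0.04).

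SGK1, a kinase that raises the surface amount of several channels, averaged 67.7 ± 1.38 CPM in KCl and 38.9 ± 1.2 CPM in control, a log2 fold change of 0.80 ± 0.06 (adjusted p = 5.08e-11, edgeR). The ubiquitin ligases NEDD4 and NEDD4L, which remove channels from the membrane, were both higher (adjusted p 4.15e-07 and 0.000159, edgeR). NEDD4 averaged 158.0 ± 6.64 CPM in KCl and 121.3 ± 4.76 CPM in control (log2 fold change 0.38 ± 0.05), and NEDD4L averaged 177.7 ± 12.1 CPM in KCl and 149.4 ± 1.53 CPM in control (0.25 ± 0.05). WNK1, a kinase of salt transport, was lower (-0.18 ± 0.05, adjusted p = 0.00685, edgeR). REST, a repressor of neuronal channel genes, did not pass (-0.10 ± 0.07, adjusted p = 0.254, edgeR).

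CALM2 and CALM3 both code for calmodulin, the calcium sensor of KCNN and KCNQ channels, and they moved in opposite directions. CALM2 averaged 473.8 ± 27.8 CPM in KCl and 368.0 ± 23.4 CPM in control (0.36 ± 0.05, adjusted p = 1.24e-06, edgeR). CALM3 averaged 428.5 ± 4.32 CPM in KCl and 513.1 ± 12.6 CPM in control (-0.26 ± 0.04, adjusted p = 5.68e-06, edgeR). Of the organelle genes, TMEM38A, a potassium-permeable channel of the endoplasmic reticulum, was higher on 54, 54 and 88.5 reads in KCl libraries, against 35, 27.04 and 45 reads in control libraries (0.93 ± 0.25, adjusted p = 0.00482, edgeR), and the lysosomal potassium channel gene TMEM175 was lower (-0.19 ± 0.07, adjusted p = 0.0249, edgeR).

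**Figure D5:**
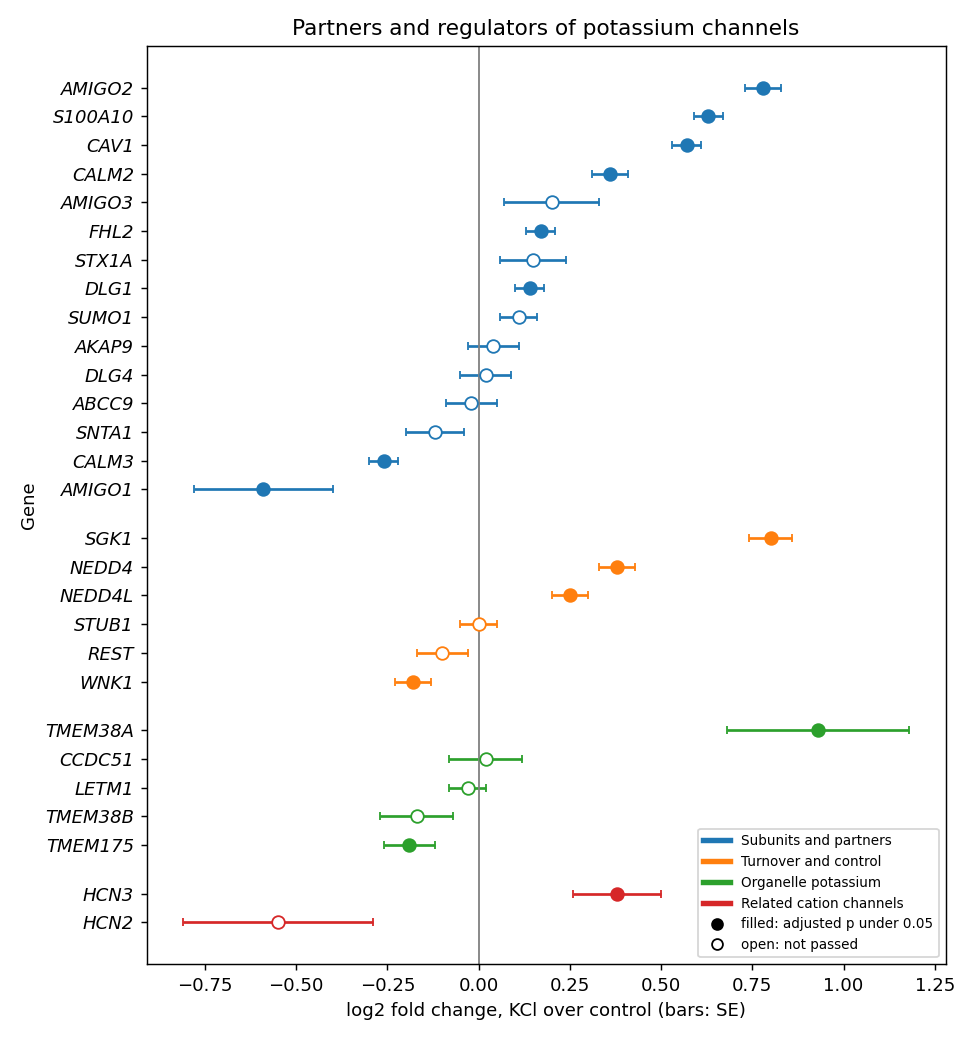
log2 fold change of KCl over control for tested partner and regulator genes, with the standard error as a bar and filled points for an adjusted p under 0.05, grouped by role. SGK1 (0.80), AMIGO2 (0.78), S100A10 (0.63) and CAV1 (0.57) lie to the right with narrow bars, TMEM38A (0.93) has a wide one, and AMIGO1 (-0.59) is the filled point farthest left.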

How the data were processed

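RNA of 6 AC16 libraries, 3 of KCl and 3 of control, was sequenced as strand-specific mRNA libraries per the labels' protocols. The deposited table gives an estimated count of reads per gene, not normalized, and 11.25% to 11.87% of these values per library were not whole. It also gives TPM and FPKM as the authors computed them. Per the submitters' processing notes, coordinates are those of GRCh38.p12. Not given in the sources used here were the aligner, the counting tool and its strand setting. Columns were matched to groups through the authors' own group means of TPM and reads. Date-like symbols (27) were restored from gene IDs. Positions and exon overlaps came from GENCODE 29 by gene ID.

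Estimated counts were rounded, scaled by TMM (factors 0.9758 to 0.9841 in KCl, 1.021 to 1.022 in control), filtered with filterByExpr (minimum count 10, minimum total 15) and compared by the quasi-likelihood F test of edgeR 4.0.16 (R 4.3.3) across 13044 genes. The SE is the size of the log2 fold change divided by the square root of F. CPM values are TMM-scaled. Replicates differed by more than sampling noise (chi-square per gene 2.98 to 4.37). On simulated counts for this comparison of 13044 genes, 82 of 100 genes changed 1.5-fold and 93 of 100 changed 2-fold were recovered, with 8 false calls. Only these genes were changed, and they were drawn from all tested genes. In the real comparison 38% of tested genes were called, and many KCN genes had few reads. The recovery of the simulation need not hold there. Alternatives used other scalings and filters, DESeq2 1.42.0, limma 3.58.1 (pseudocounts 1 and 0.1), a replicate block and each library left out. Members and lists were chosen with earlier results of these data known. Named with values were the expressed and the called KCN genes, those next to 1 TPM, and up to 6 called partners with the smallest p. Other genes named were chosen after their values were seen. MYL3, CD3E and CAV3 were not analysed here, and a few members and partners are not reported here by name.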

Additional observations from a re-analysis of the deposited data

How the results depend on the processing

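Against 6 KCN genes higher and 1 lower in the counts, limma called 3 higher on log2(TPM + 1), 3 on log2(TPM + 0.1) and 2 on log2(FPKM + 1), each with KCNK6 as the 1 lower. Upper-quartile scaling called 2 lower, the fit without a filter 3, and DESeq2 0, against 1 in the main edgeR fit. Counting either direction, 10 of the 26 had an unadjusted p under 0.05 in that edgeR fit. Leaving out 1 library gave 5 to 7 KCN genes higher and 0 to 3 lower, and 8 to 12 partner genes higher and 2 to 4 lower. KCNK2 and KCNE4 held their calls under all 17 settings. KCNS3 lost it under 9, KCNK6 under 4, KCNS1 and KCNMA1 under 3 each, and KCNJ2 under 1 of 16. No log2 fold change of a called KCN gene changed sign. The cause of these differences was not tested. Over all genes, higher calls were 52.8% of calls in the counts (2621 higher, 2342 lower), 40.9% with upper-quartile scaling (2102 and 3038), 40.9% and 41.1% on TPM (1825 and 2639, 1825 and 2617) and 33.5% on FPKM (1580 and 3141). Over all genes, the median of the log2 fold changes was -0.005 in the counts and moved to -0.055 at most. In their deviations from the group means, KCl and control replicates with the same number had r of 0, -0.01 and 0.05. Those with different numbers had r of -0.06 to 0.07. With 3 libraries per group, these values cannot tell whether libraries with the same number shared a batch. A fit with the replicate block called 6 KCN genes higher and 1 lower, 2715 and 2425 genes over all, and 12 and 4 partner genes. Of KCN genes, 19 were expressed at 1 TPM, 26 at 0.5 TPM, 17 at 2 TPM and 17 at 1 FPKM. The summed level of the expressed KCN genes alone was 227.3 TPM in KCl and 212.6 TPM in control. Depth limits the 70 untested KCN genes, which had at most 54 reads in all.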
